A study of Mus musculus with 335 samples.

Results

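The cells described here are the 65 EPCR+CD45+ cells of a mouse embryo study that sequenced 335 single cells. They are every cell whose label gives HSC as its cell type or region, so membership comes from the sort and not from any measured RNA. All cells of the study were taken from wild-type embryos at E11.5, from the aorta-gonad-mesonephros (AGM), the tissue around the dorsal aorta. The tissue was dissociated with collagenase, stained and sorted directly into lysis buffer, and the RNA was sequenced by Smart-seq2, which reads full-length transcripts of 1 cell at a time. The labels describe the EPCR+CD45+ sort as haematopoietic stem and progenitor cells, and the study's design text says that every HSC of the tissue falls within it. EPCR is the protein of Procr and CD45 the protein of Ptprc, so these 2 genes were selected for. The other 3 groups serve here only as background. They are 93 Dorsal and 89 Ventral cells (Ngfr+Pdgfrb-, from the dorsal and the ventral side of the aorta) and 88 Mesenchymal cells (Pdgfrb+Ngfr-, from the ventral side). Each group was sequenced as 1 pool, and no animal or litter is named. Each group is therefore 1 sample here. Its cells are not replicates, and the report holds no p-value or standard error.

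In the mid-gestation embryo, the first haematopoietic stem cells (HSCs) arise from haemogenic endothelium in the wall of the dorsal aorta. Endothelial cells there switch on the transcription factor Runx1 and its targets Gfi1 and Gfi1b, gain the pan-leukocyte phosphatase CD45 and leave the vessel wall as rounded cells in clusters. During this transition endothelial genes are progressively lost while blood genes are gained. Only a small part of the cells with this surface phenotype can repopulate an adult recipient. Procr encodes the endothelial protein C receptor, which marks endothelium as well as HSCs.

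The 65 cells held 82522446 estimated counts over genes with a symbol. A cell held between 276624 and 7093714 counts, with a median of 943850, and between 4468 and 8795 detected genes, with a median of 7342. The deepest cell (HSC 23) carried 8.60% of the pool. Dock10 and Cep97 together took a median of 15.4% of the counts of a cell, against 7.68% in Dorsal, 7.55% in Ventral and 14.2% in Mesenchymal cells. Each of the 65 cells had its own pair of library indices, and 63 of these pairs recur in the Dorsal pool, 62 in the Ventral and 60 in the Mesenchymal. Cells were sorted singly, but no caller of doublets was run, so doublets were not tested. To compare cells at 1 depth, each was thinned at random to 310000 counts, which left out 1 HSC cell, 1 Dorsal, 9 Ventral and 19 Mesenchymal cells. A cell is called positive for a gene when at least 5 thinned counts remain. Levels are in counts per 1000000 counts of genes with a symbol (CPM), from all counts of a cell or of the summed pool. They are not corrected for transcript length, so levels are compared between cells and groups, and no level of 1 gene is set against that of another. Intervals (exact Clopper-Pearson for shares, exact Poisson for pooled ratios, 95%) cover counting error only.

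Some libraries stand apart. The cells HSC 22, 23, 24 and 25, the 4 HSC cells of 1 i7 library index, had a median total of 4450650 counts, included the 3 deepest cells and carried 22.5% of the pool. Their Procr, a gene of the sort, was at 0.852, 0.141, 1.66 and 1.57 CPM, and 0 of the 4 were positive, while the median Procr of the cells of each of the 10 other i7 indices lay between 57.7 and 274 CPM. Among 1895 genes positive in at least 80% of the other cells, Procr and 5 more were positive in none of these 4 cells, and for each other i7 index such genes numbered 0 or 1. Results on Procr are therefore also given without these 4 cells, an alternative added after the data were seen. HSC 37 and HSC 52 had summed myeloid levels of 20571 and 34938 CPM. HSC 37 was at 0 CPM of Procr, Kit, Cdh5 and Vwf, with 327 CPM of Ptprc and 362 of Runx1, while HSC 52 held 125 CPM of Procr, 192 of Kit and 101 of Cdh5.

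The label was checked against 6 markers, of which the first 4 were not used in the sort. Runx1 (chr16:92601466-92826149, minus strand, GENCODE M21 on GRCm38), the transcription factor that opens the blood programme, was at 1.34 CPM in the lowest cell, 110 in the median and 1052 in the highest (HSC 22). It was above 0 in every cell, and 61 of 64 thinned cells were positive (95.3%, interval 86.9 to 99.0%). Myb (chr10:21124935-21160984, minus strand), a transcription factor needed for definitive blood, ran from 2.26 over 155 to 583 CPM and was positive in 57 cells. Kit (chr5:75574916-75656722), the stem cell factor receptor, ran from 0 over 358 to 1400 CPM and was positive in 62 cells. These 3 genes were thus near-universal in the sort, over a wide range of levels. Their pooled levels were 11.9-fold (Runx1), 30.9-fold (Myb) and 5.54-fold (Kit) those of the highest other pool. Kit alone was common elsewhere, with 22 of 92 Dorsal, 38 of 80 Ventral and 40 of 69 Mesenchymal cells positive.

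Gfi1 (chr5:107716657-107726036, minus strand), a repressor that silences endothelial genes during the transition, divided the sort. It was at 0 CPM in 16 cells, at 17.6 CPM in the median cell and at 215 in the highest (HSC 15). Positive cells were 33 of 64 (51.6%, interval 38.7 to 64.2%). No count of Gfi1 was present in the other 3 pools, so the pooled HSC level of 42.6 CPM was at least 974-fold higher than a pool with 3 counts, the floor used for a count of 0. Of the sort genes, Procr (chr2:155751117-155755471) was at 0 in 3 cells, 125 CPM in the median cell and 1194 CPM in the highest (HSC 59), with 53 of 64 cells positive (82.8%, interval 71.3 to 91.1%). Without HSC 22 to HSC 25 the share was 53 of 60 (88.3%). Ptprc (chr1:138062861-138175708, minus strand) ran from 0 over 144 to 1779 CPM (HSC 25), with 59 cells positive (92.2%). A sort on the proteins thus held some cells with few or no counts of the RNA. All 6 markers were positive in 26 of 64 cells, at least 5 in 47, at least 4 in 60 and at least 3 in all 64. No cell of the 3 other groups was positive for 4 or more (0 of 92, 0 of 80 and 0 of 69).

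**Figure D1:**
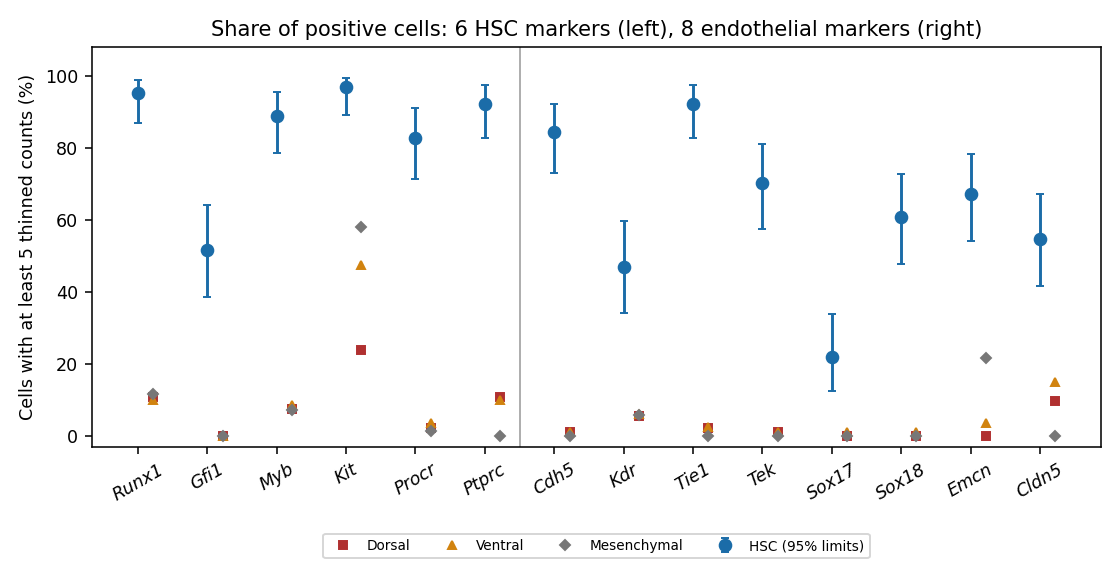
Share of positive cells in percent (at least 5 thinned counts) for the 6 HSC markers at the left and the 8 endothelial markers at the right. Blue points are the 64 HSC cells with exact 95% limits as bars, and squares, triangles and diamonds are Dorsal, Ventral and Mesenchymal cells. The HSC share is above that of the other groups for each gene, from 21.9% for Sox17 to 96.9% for Kit, and Kit has the highest shares in the other groups.

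Most markers of the other sorted groups were positive in few or no HSC cells. Of 13 sympathoadrenal and crest markers 9 were positive in 0 cells and 0 in 20% of cells or more. Of 12 mesenchymal and mural markers these numbers were 5 and 1. Elavl4 was positive in 18.8% of cells and Postn in 17.2%. Ngfr and Pdgfrb, the genes of the other sorts, were positive in 0 of 64 cells, which allows a share of up to 5.60% (upper exact limit). Sox10, which defines neural crest cells, had 0 counts in every HSC cell, and the summed level of the 13 measured crest markers had a median of 1.19 CPM (0 to 320, against medians of 1881 in Dorsal and 1416 in Ventral). Of the 12 mesenchymal and mural markers, Col1a1 was positive in 0 cells and Acta2, smooth muscle actin, in 13, and their sum had a median of 15.2 CPM (1.66 to 611, against 3160 in Mesenchymal). Mature macrophages also carry CD45. The 18 macrophage genes summed to a median of 29.7 CPM (1.41 to 439, the highest in HSC 14). Of these genes 7 were positive in 0 cells and 2, Cd68 and Lgmn, in 20 to 80% of cells. C1qa was positive in 0 cells and Mrc1, Adgre1 and Cx3cr1 in 1 cell each. None of the 4 measured germ cell markers was positive in over 20% of cells. Of the 6 epithelial markers, Epcam, Pax2 and Wt1 were positive in 0 cells and Krt8 in 2. Krt18, an intermediate filament gene, was positive in 49 cells (76.6%), and Pax8 in all 64, as in 92 of 92 Dorsal, 76 of 80 Ventral and 69 of 69 Mesenchymal cells. No HSC cell reached the median crest sum of Dorsal or Ventral cells or the median mesenchymal sum of Mesenchymal cells, and the part of these counts in later results was not tested.

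To describe what sets the sort apart, its pooled CPM was set against the highest, or for lower genes the lowest, of the 3 other pools. A difference of 2-fold on the scale of CPM + 1 was counted. Over all 13446 genes with at least 100 counts in the 4 pools, 6.79% were at least 2-fold higher than in every other pool and 11.3% at least 2-fold lower. The median log2 ratio to the highest other pool was -0.63, below 0 because the highest of 3 values is taken. The lists of genes were set against these shares. Higher were 25 of 37 endothelial genes (2 lower), 21 of 38 haematopoietic surface and receptor genes, 17 of 33 haematopoietic transcription factors, 13 of 19 myeloid progenitor genes, 10 of 15 megakaryocyte and platelet genes and 15 of 34 interferon and antigen presentation genes (1 lower). The respective median log2 ratios were 2.38, 1.56, 1.20, 1.98, 2.40 and 0.92. Lower were 21 of 37 Hox and cofactor genes (0 higher, median -2.65) and 11 of 18 imprinted genes (1 higher, median -2.40). Endothelial and blood genes were thus both higher in this sort. No endothelial sort is among the 4 groups.

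The 20 genes with the largest ratio over the other pools by the rule for named genes included Mpo, Procr, Gfi1, Cd34 and Tek. Gimap6, a GTPase of immune cells, was positive in 63 of 64 cells and ran from 6.54 to 1382 CPM, 110-fold above the highest other pool. Hlf (chr11:90336536-90390895, minus strand), a transcription factor tied to HSC identity, was positive in 60 cells (0, 81.7 and 353 CPM in the lowest, median and highest cell) and 67.5-fold higher. Myct1, a gene of endothelium and HSCs, was positive in 61 cells and 160-fold higher. Most HSC cells carried these 3 genes, with few cells at 0. The rule takes only genes positive in at least 25% of HSC cells before thinning, so shares among the 20 are partly set by it. Mmrn1, the gene of multimerin 1 in platelets and endothelium, was positive in 45 cells and had 1 count in all other pools, a ratio of 19918 with a counting interval of 3574 to 786788. Also among the 20 were Car2 (54 cells), Pdzk1ip1 (53), Samsn1 (53), Adgrl4 (52), Tspan32 (45), the coagulation factor gene F5 (45), Gimap5 (38), Ocln (32), Hbb-bt (25) and Clec4e (20). Ptprcap completes them and has a second entry in the table, which makes its value uncertain.

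Among the 33 haematopoietic transcription factors, 13 were positive in over 80% of cells, 19 in 20 to 80% and 1 in under 20%. Over all 13448 genes these shares were 13.7%, 45.3% and 41%. Spi1, the master regulator of myeloid fate, was positive in all 64 cells (16.8 to 752 CPM, median 220). Ikzf2, of the Ikaros family, was positive in 61 cells, Meis1, a HOX cofactor, in 59, Bcl11a in 58, Nfe2 in 55 and Lmo2, a bridge in the blood transcription factor complex, in 54. Lmo2, Nfe2 and Ikzf2 were 45.7-fold, 41-fold and 22.9-fold above the highest other pool. Factors nearer the middle were Gata2 (42 cells), Erg (39) and Zeb2 (36), and Gfi1 itself. The summed level of the list ran from 699 over 3012 to 5243 CPM, the highest cell being 1.74 times the median.

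Surface and receptor genes ranged from universal to nearly absent. Cd34, a sialomucin of endothelium and early progenitors, was positive in all 64 cells (80.3, 684 and 1747 CPM in the lowest, median and highest cell) and 58.9-fold above the highest other pool. Adgrg1 (GPR56) was positive in 63 cells, Itga4 in 63, Itgb1 in 62, the hyaluronan receptor Cd44 in 61 and Esam in 56. Genes used to order maturation or stem cell subsets split the sort. Spn (CD43) was positive in 33 cells, Ly6a (Sca-1) in 23 (35.9%) and Flt3 in 21. Cd48, a marker of committed progenitors, was positive in 2 cells. Flt3 was chosen after its values were seen. The low share of Cd48 is a statement about these estimated counts and not about the protein.

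Of the 37 endothelial genes 10 were positive in over 80% of cells, 19 in 20 to 80% and 8 in under 20%, beside 13.7%, 45.3% and 41% of all genes, with a median share of 53.1%. Several were carried by most cells. Cdh5 (chr8:104101625-104144511), VE-cadherin of the endothelial junction, was at 0 CPM in 2 cells, 84 in the median cell and 415 in the highest (HSC 29), with 54 of 64 cells positive (84.4%). The angiopoietin receptor family members Tie1 and Tek were positive in 59 and 45 cells. Tie1 ran from 0 over 144 to 470 CPM and Tek from 0 over 62.6 to 469 CPM, 28.7-fold and 131-fold above the highest other pool. Vwf, von Willebrand factor, ran from 0 over 248 to 2670 CPM (HSC 45) with 55 cells positive, 45.2-fold higher. Secreted Egfl7 was positive in 63 cells and Ecscr in 57. These 6 genes were thus present in most cells of a sort gated on the blood antigen CD45 and on EPCR, which also marks endothelium.

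Other endothelial genes divided the cells. Emcn was positive in 43 cells, Sox18 in 39, the junction gene Cldn5 in 35 (0, 21 and 802 CPM in the lowest, median and highest cell), Flt1 in 34, the VEGF receptor Kdr in 30 (46.9%) and Sox17, a factor of arterial and haemogenic endothelium, in 14 (21.9%). Emcn and Sox17 come from the fixed set of 8 endothelial markers (Cdh5, Kdr, Tie1, Tek, Sox17, Sox18, Emcn and Cldn5). At least 4 of the 8 were positive in 51 of 64 cells (79.7%), all 8 in 6 cells and none in 1 cell, with a median of 5 a cell. In the other groups at least 4 were positive in 0 of 92, 1 of 80 and 0 of 69 cells. Runx1, Cdh5 and Ptprc were positive together in 47 of 64 cells (73.4%). Hey2 and Aplnr were positive in 0 cells, and Nr2f2, a venous regulator, was at 0.109 CPM in the pool; these 3 genes were chosen after their values were seen. The summed endothelial level ran from 234 over 2757 to 7544 CPM (HSC 45), against medians of 497, 424 and 578 CPM in Dorsal, Ventral and Mesenchymal cells.

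**Figure D2:**
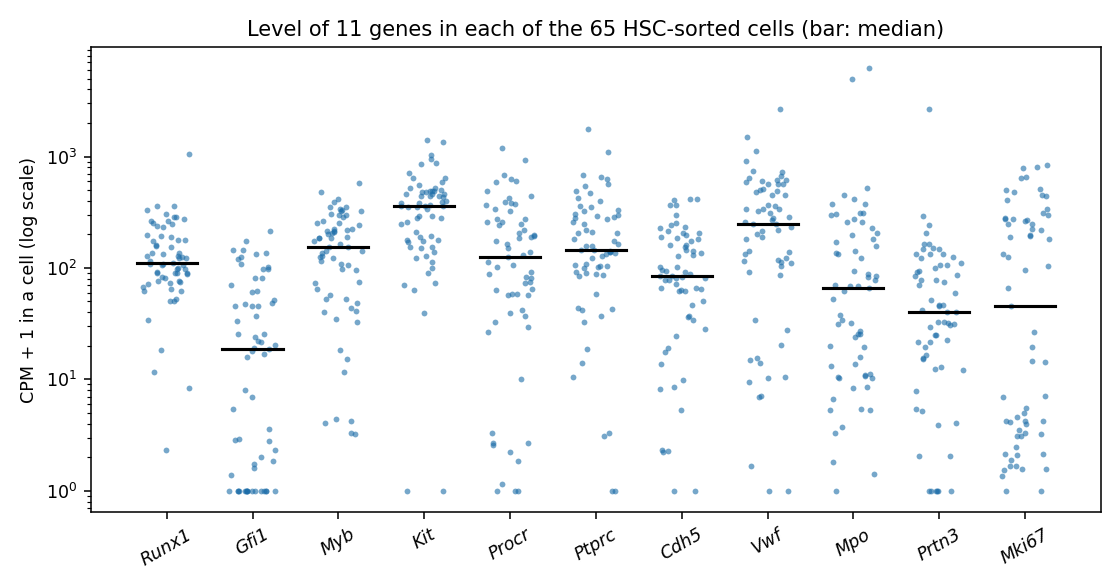
Level of 11 genes in each of the 65 HSC cells, as CPM + 1 on a log scale, 1 point a cell, with the median as a bar and sideways scatter for legibility only. Most cells lie close to the median for Runx1 and Kit, Gfi1 has 16 cells at 0, Mki67 has a high and a low set of cells with few between them, and 2 cells stand above the others for Mpo.

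Genes of several blood lineages were found in the same cells. Mpo (chr11:87793581-87804413), the peroxidase of neutrophil granules, was at 0 in 1 cell, 65.1 CPM in the median cell and 6164 CPM in the highest (HSC 52), with 4956 CPM in the next. It was positive in 45 of 64 cells (70.3%, interval 57.6 to 81.1%) and 783-fold above the highest other pool (interval 534 to 1199). Prtn3 (chr10:79874476-79883174), the granule protease 3 gene, was positive in 48 cells (0, 39.2 and 2676 CPM in the lowest, median and highest cell), Srgn, the granule proteoglycan, in 60 and Coro1a, an actin regulator of leukocytes, in 64. Cebpa, which drives granulocyte commitment, was positive in 0 cells. Low Mpo and Prtn3 were thus common and very high levels rare. Without the cells HSC 37 and HSC 52, an alternative added after the data were seen, 7 rather than 13 of the 19 myeloid genes were at least 2-fold above every other pool.

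Of the megakaryocyte and platelet genes, Gp9 was positive in 30 cells (46.9%), Itgb3 in 27, Selp in 18, Ppbp in 12 and Pf4 in 7. The counts of Selp and Gp9 in the other pools were few, and ratios to the highest were 485 (interval 189 to 1781) and 224 (141 to 378). Of 9 erythroid genes 3 were higher than in every other pool: Car2, carbonic anhydrase 2, positive in 54 cells, the adult globin gene Hbb-bt in 25 (0, 4.35 and 1393 CPM, the highest in HSC 56) and embryonic Hbb-y in 5 (highest 1371 CPM in HSC 54). The median log2 ratio of the 9 was -0.96, against -0.63 over all genes, and 5 were positive in under 20% of cells. Of 16 lymphoid genes 5 were higher and 1 lower. Over all genes 6.79% were higher and 11.3% lower. Cd79b was positive in 28 cells, Ltb in 27 and Il2rg in 22. Of 5 mast cell and basophil genes 3 were higher, and 1 without HSC 37 and HSC 52; Cpa3 was positive in 2 cells and Hdc in 8.

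Combinations were counted in the same thinned cells. At least 4 endothelial markers together with Mpo were positive in 35 of 64 cells (54.7%). At least 1 of the myeloid genes Mpo, Prtn3 and Ms4a3 was positive in 56 cells (87.5%), and all of them in 11. Co-detection in 1 library does not tell low expression from reads of other libraries, so index sharing was counted.

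Cells HSC 52 and HSC 37 stood apart by single genes. There were 33 genes whose highest cell exceeded 500 CPM and 5 times the next cell, and HSC 52 and HSC 37 each held 9 of them. In HSC 52 the neutrophil genes S100a8 and S100a9 reached 10432 and 10626 CPM, and 99.5% and 99.3% of all HSC counts of these genes lay in that cell. Lgals1 (4250 CPM), the Fc receptor gene Fcgr3 (4070 CPM), the histidine decarboxylase gene Hdc (1631 CPM) and the mast cell protease gene Cpa3 (796 CPM) were highest in HSC 37. HSC 37 also had the second highest Mpo, at 4956 CPM. These cells thus carry granulocyte genes (HSC 52) and basophil and mast cell genes (HSC 37) at levels unlike the others. Both have the HSC label, and HSC 37 held no count of the sort gene Procr. HSC 52 had the most detected genes of the pool (8795), at a total of 1053250 counts. Whether it held more than 1 cell was not tested. Cells that share the i7 or the i5 index with HSC 52 had at least 5 counts of S100a9 in 6 of 15 cases, against 0 of 49 other cells. The same counts for Hdc and HSC 37 were 9 of 13 and 4 of 51. Mpo had at least 5 counts in 15 of 15 cells that share an index with HSC 52 and in 38 of 49 others, with medians of 141 and 36.7 CPM. Low counts of S100a9, Hdc and Mpo therefore moved with the index, and its part in the shares above was not tested. The same direction was seen for S100a8 (2 of 15 and 0 of 49, by HSC 52). By HSC 37 it was seen for Fcgr3 (7 of 13 and 9 of 51), Cd53 (6 of 13 and 13 of 51) and Lgals1 (12 of 13 and 35 of 51). Prtn3 (11 of 15 and 40 of 49, by HSC 52), Cpa3 (1 of 13 and 1 of 51, by HSC 37) and Plac8 (0 of 13 and 9 of 51) did not follow this pattern. Neither did Ppbp (3 of 13 and 10 of 51, by HSC 63). Ptprc, Ifitm1 and Srgn were found in nearly all cells with or without a shared index.

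The levels of Procr varied together with those of endothelial genes. Spearman's rho was computed across 64 thinned cells between Procr and 7655 other genes that were positive in at least 20% of cells. All cells share 1 pool, and the rho of Procr with the total and the detected genes of a cell was -0.13 and -0.10. In either direction 76 genes (0.993%) reached 0.4 in size. Among all genes, 0.666% had a rho of at least 0.4 and 0.327% one of -0.4 or lower, with a median of 0.00. Of the 29 endothelial genes that entered, 15 had a rho of at least 0.4 and 0 of -0.4 or lower, with a median of 0.41. That median was 0.41 in the 30 cells with an odd i7 index and 0.42 in the 34 with an even one. Without HSC 22 to HSC 25, 14 of the 29 reached 0.4, with a median of 0.39, beside 0.705% of all genes. Correlations across cells are descriptions of this pool and carry no p.

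The highest rho was that of Cdh5 at 0.67 (0.69 in odd and 0.64 in even cells), followed by Cldn5 at 0.59, Vwf at 0.59, Ramp2, a subunit of the adrenomedullin receptor, at 0.58 and Col4a2, a collagen of the basement membrane, at 0.55. Other endothelial genes over 0.4 were Ecscr (0.54), Plvap (0.54), Tie1 (0.53), Egfl7 (0.50), Mmrn2 (0.49), Icam2 (0.49), Sox17 (0.47), Bmx (0.46), Gja4 (0.45), Mecom (0.43) and Sox18 (0.41). Without HSC 22 to HSC 25 the rho of Procr was 0.70 with Cdh5, 0.59 with Cldn5, 0.63 with Vwf, 0.57 with Ramp2 and 0.56 with Col4a2. Cells low in Procr thus tended to be low in these genes as well. Not all endothelial genes took part. Kdr had a rho of 0.23, Tek 0.19, Flt1 0.14, Emcn -0.13, Adgrl4 -0.22 and Mmrn1 -0.24. Plvap, Mmrn2, Icam2, Bmx, Gja4, Ikzf1 and Gfi1b are named here after their values were seen.

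**Figure D3:**
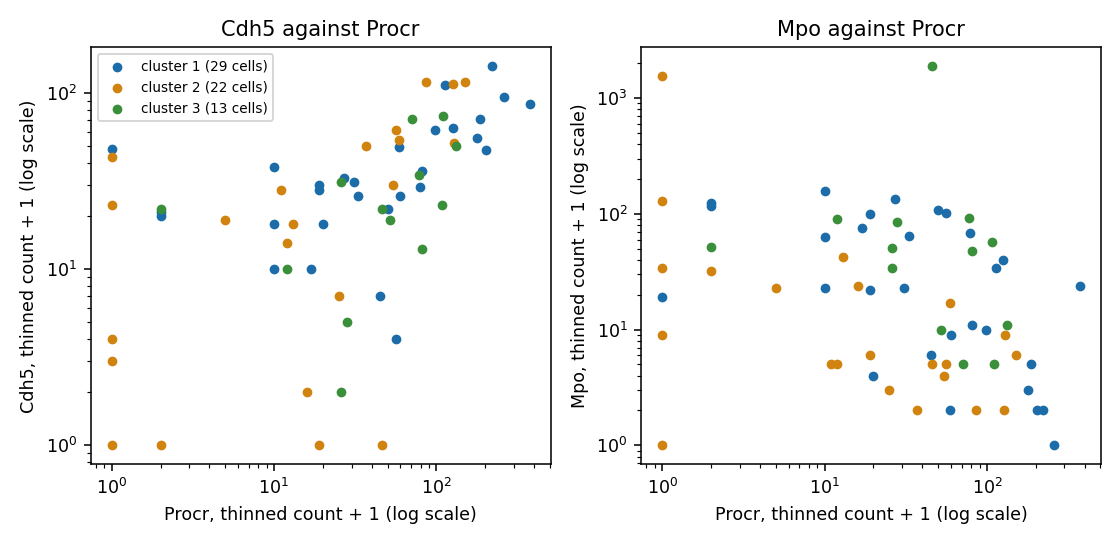
Thinned count + 1 of Cdh5 (left) and of Mpo (right) against that of Procr, log scales, 1 point a cell for 64 HSC cells, coloured by cluster. Cdh5 is higher in cells with more Procr (rho 0.67) and Mpo is lower (rho -0.39), with cells of all 3 clusters along both trends.

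Most blood regulators did not follow Procr. Of 32 haematopoietic transcription factors 1 had a rho of at least 0.4 (Mecom, which is also in the endothelial list). A rho of -0.4 or lower was found for 2, and the median was -0.05. Over all genes these shares were 0.666% and 0.327%. The 2 were Ikzf1 (chr11:11685003-11772926), the Ikaros factor of lymphoid and myeloid progenitors, at -0.50 (-0.53 in odd and -0.52 in even cells) and Gfi1b at -0.46 (-0.41 and -0.52). Runx1 had a rho of -0.06, Kit 0.07, Hlf -0.04, Ptprc -0.15 and Gfi1 0.30. Mpo had a rho of -0.39 with Procr (-0.29 and -0.45). None of 29 surface and receptor genes passed 0.4 in either direction. Over all genes 0.993% did, so a count of 0 is near that share. Cdkn1c, a CDK inhibitor, had a rho of 0.47 (0.59 and 0.43). In counts of cells, Procr and Cdh5 were both positive in 47, Procr alone in 6, Cdh5 alone in 7 and neither in 4. For Procr and Mpo the numbers were 35, 18, 10 and 1. Cells with Mpo and without Procr thus made up 10 of the 11 cells without Procr. Of those 11 cells 4 were HSC 22 to HSC 25, and of the other 7 all 7 held Mpo. HSC 37 was among these 7, and so were HSC 40 and HSC 55, which share an index with HSC 52. The part of index sharing in this contrast of Procr with Mpo was not tested. Without those 4 cells the rho of Procr was -0.44 with Ikzf1, -0.46 with Gfi1b, -0.40 with Mpo and 0.51 with Cdkn1c.

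The co-variation was also seen around Cdh5 and within the clusters described further on. Cdh5 had a rho of at least 0.4 with 0.549% of all genes (-0.4 or lower with 0.261%) and with 7 of 28 endothelial genes (median 0.33), among them Tie1 at 0.62. The basement membrane collagens Col4a2 and Col18a1 had a rho of 0.57 and 0.53 with it. Within clusters 1, 2 and 3 (29, 22 and 13 cells) the rho of Procr with Cdh5 was 0.67, 0.63 and 0.59, with Ikzf1 -0.55, -0.53 and -0.41 and with Mpo -0.57, -0.45 and -0.37. With Cldn5 it was 0.72, 0.59 and 0.05, so this pair did not hold in the 13 cells of cluster 3. The sums of the endothelial and the myeloid lists had a rho of -0.24, which was 0.03 in odd and -0.51 in even cells. The contrast of Procr with Mpo did not extend to those sums alike in both sets of cells.

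**Figure D4:**
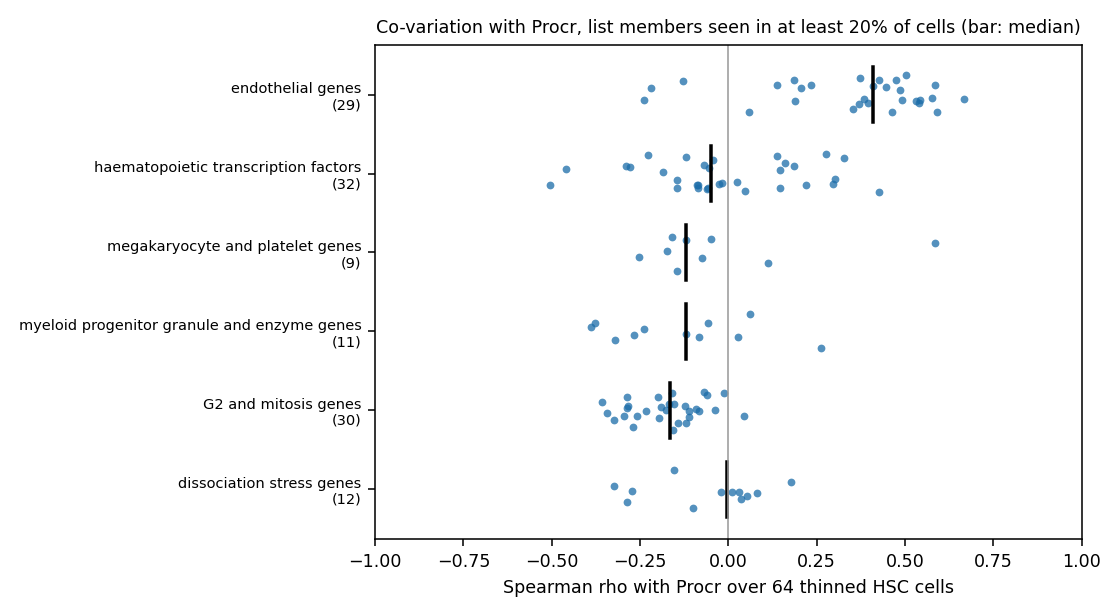
Spearman's rho with Procr across 64 thinned HSC cells for the members of 6 lists, 1 point a gene, with the number of genes in brackets and the list median as a bar. The endothelial median lies at 0.41 and that of the haematopoietic transcription factors at -0.05, and the 1 point at 0.59 in the megakaryocyte list is Vwf, which both lists hold.

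The promoters of these genes are shown to set the group beside Mpo. RefSeq (GRCm38.p6) windows of 250 bases before the start were held for 9 of 18 genes looked up (15 endothelial genes that follow Procr, with Procr, Mpo and Prtn3 added), and Cdh5, Vwf, Ramp2, Plvap, Ecscr, Mmrn2, Icam2, Sox17 and Sox18 were not used here. Printed are the bases of 4 windows that lie outside the annotated gene, 5′ to 3′ on the strand of the gene. Capitals mark the letters AGGAAG, a form of the ETS site, or their reverse complement CTTCCT. Other forms of the site, such as the cggaag in Tie1, were not searched and are in lower case. Procr is from chr2:155750967-155751116, Cldn5 from chr16:18776597-18776846, Tie1 from chr4:118490062-118490099 (minus strand) and Mpo from chr11:87793534-87793580.
Procr: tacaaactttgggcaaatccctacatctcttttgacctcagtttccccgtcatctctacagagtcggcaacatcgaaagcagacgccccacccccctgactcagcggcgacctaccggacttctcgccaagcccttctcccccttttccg
Cldn5: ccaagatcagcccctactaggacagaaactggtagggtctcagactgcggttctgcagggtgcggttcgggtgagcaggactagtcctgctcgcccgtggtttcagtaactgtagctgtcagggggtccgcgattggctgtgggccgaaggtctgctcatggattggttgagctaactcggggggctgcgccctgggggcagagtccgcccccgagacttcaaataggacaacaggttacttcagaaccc
Tie1: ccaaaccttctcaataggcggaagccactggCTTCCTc
Mpo: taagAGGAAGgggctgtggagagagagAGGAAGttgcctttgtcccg

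Over the full 250 bases the letters AGGAAG or CTTCCT were found 3 times in Mpo, 2 times in Prtn3, 3 times in Egfl7 and 1 time in Tie1. They were not in Procr, Cldn5, Bmx, Gja4 or Mecom. For genes with several starts (Egfl7 and Mecom) only the most upstream was read. The letters occur in 29.5% of all 32851 promoter windows of that length. The RUNX letters TGTGGT (14% of windows) and the GATA letters AGATAA (9.99%), searched on both strands, were in none of the 9. A match is a string of letters and not a bound site, and a missing one says nothing about the factor.

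Mpo varied together with some G2 and mitosis genes. Of 7655 genes 1.03% had a rho of at least 0.4 with Mpo and 0.261% one of -0.4 or lower, and the median over all genes was 0.08. Mpo itself had a rho of 0.40 with the number of detected genes, as Mki67 had 0.50 and the summed G2 and mitosis level 0.62. The sums of the myeloid and of the G2 and mitosis lists had a rho of 0.12 with each other. Among genes with a rho of at least 0.4 in both odd and even cells, the highest were Cmtm7 (0.57), Rbfa (0.51), the mitotic spindle gene Dlgap5 (0.51), Utp3 (0.50) and Birc5, the survivin gene (0.48). Ccnb2 was at 0.49 but did not meet that condition. Of 30 G2 and mitosis genes 6 passed 0.4 (Ccnb2, Birc5, Cdca3, Tacc3, Ccna2 and Bub1b), with a median of 0.32, but the count moved to 12 in odd cells (beside 8.74% of all genes), 7 in even cells (1.75%), 4 after thinning without Dock10 and Cep97 (0.379%) and 12 without HSC 22 to HSC 25 (1.67%). Mmrn2 was at -0.53. Mpo and Prtn3 had a rho of 0.46 (0.59 in odd and 0.35 in even cells), with both positive in 37 cells. Gfi1 and Mpo had a rho of -0.05, with both positive in 21 cells, Gfi1 alone in 12, Mpo alone in 24 and neither in 7.

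The other anchor genes had fewer partners. Gfi1 had a rho of at least 0.4 with 0.366% of 7655 genes and of -0.4 or lower with 0. Its highest were Smyd2, a lysine methyltransferase gene, at 0.52 and Stoml1 at 0.50, then Tmem219 (0.47), the lysosomal protease gene Ctsl (0.46) and Telo2 (0.43), and with Myb and Kit it had 0.38 and 0.34. Mecom, a transcription factor of HSC maintenance, had 0.314% of genes at 0.4 or more and 0.0523% at -0.4 or lower, with Wdr6 and Dync1li1 at 0.47 and the basement membrane collagen Col4a1 at 0.46. Hlf had 0.0523% and 0.0261%, with Nudcd3 at 0.47 and the efflux transporter gene Abcg2, a side population marker of stem cells, at 0.44. Itga2b, the gene of CD41, which marks the first blood progenitors, was positive in 14 cells and had 0.405% and 0.0131%, with Rnf19a and Nsd2 at 0.47 and the mitosis gene Cenpf at 0.45. Cd48, positive in 2 cells, is not described by its correlations.

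Among the anchor genes described, Mki67 had the largest share of genes with a rho of at least 0.4. Mki67 (chr7:135689784-135716361, minus strand), the gene of the Ki-67 protein of dividing cells, was positive in 36 of 64 cells (56.2%) and ran from 0 over 44.8 to 836 CPM. Top2a was positive in 45, the mitotic kinase gene Cdk1 in 50, Ube2c in 34 and Ccnb1 in 32. Of 7655 genes 3.12% had a rho of at least 0.4 with Mki67 and 0.0784% one of -0.4 or lower, and of 29 G2 and mitosis genes 28 did, with a median of 0.69. Bub1 and Sgo2a were at 0.82, Kif11 at 0.81, Cdca2 at 0.80 and Birc5 at 0.79. Kif11 has a second entry in the table, which makes its value uncertain. Of 26 S phase genes 6 did, with a median of 0.20. Genes of G2 and mitosis were thus high in the same cells, and S phase genes only partly so. Mki67 itself had a rho of 0.50 with the number of detected genes. The summed G2 and mitosis level ran from 121 over 905 to 13368 CPM (HSC 41), and its rho with the number of detected genes was 0.62. The medians of that sum in Dorsal, Ventral and Mesenchymal cells were 580, 1356 and 465 CPM. Of the 30 genes 0 were 2-fold higher or lower than in every other pool, beside 6.79% and 11.3% of all genes. Procr and Mki67 had a rho of -0.36, which was -0.29, -0.70 and 0.27 within the 3 clusters.

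Cell-to-cell spread was ranked by the excess of the squared coefficient of variation over the trend on the mean, on a log2 scale. Of 6089 genes positive in 20 to 80% of cells, 1.17% had an excess of at least 2. Mpo led with 5.04, followed by the calcium pump gene Atp2b4 (4.70, with 64.2% of its counts in HSC 23), Lgals1 (4.63) and Prtn3 (3.73). List medians are over all members with an excess, also those outside 20 to 80%. The median was 2.68 for the myeloid list (19 genes), 1.26 for G2 and mitosis (30) and 1.52 for dissociation stress (16). Of the members positive in 20 to 80% of cells, 5 of 9, 4 of 29 and 4 of 10 had an excess of at least 2. By contrast the median was 0.51 for the endothelial list and 0.09 for the haematopoietic transcription factors, each with 0 genes at 2 or more in this class. Without HSC 37 and HSC 52 the excess of Mpo was 0.88, of Lgals1 -0.02 and of Prtn3 -0.03. Fcer1g was at 0.37 and Tyrobp at 0.20, and Ms4a3 was no longer positive in 20% of cells, so that 0 of the 5 myeloid genes kept an excess of 2. Nr4a1 (3.28), an immediate early gene highest in HSC 48 at 1609 CPM, Hbb-bt (2.90), Ube2c (2.89) and Top2a (2.78) kept theirs. Of the 20 leading genes 11 stayed among the leading 20 without those 2 cells. Spread above the trend was thus larger in granule, cycle and stress genes than in regulators, and for the granule genes it rested on 2 cells.

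**Figure D5:**
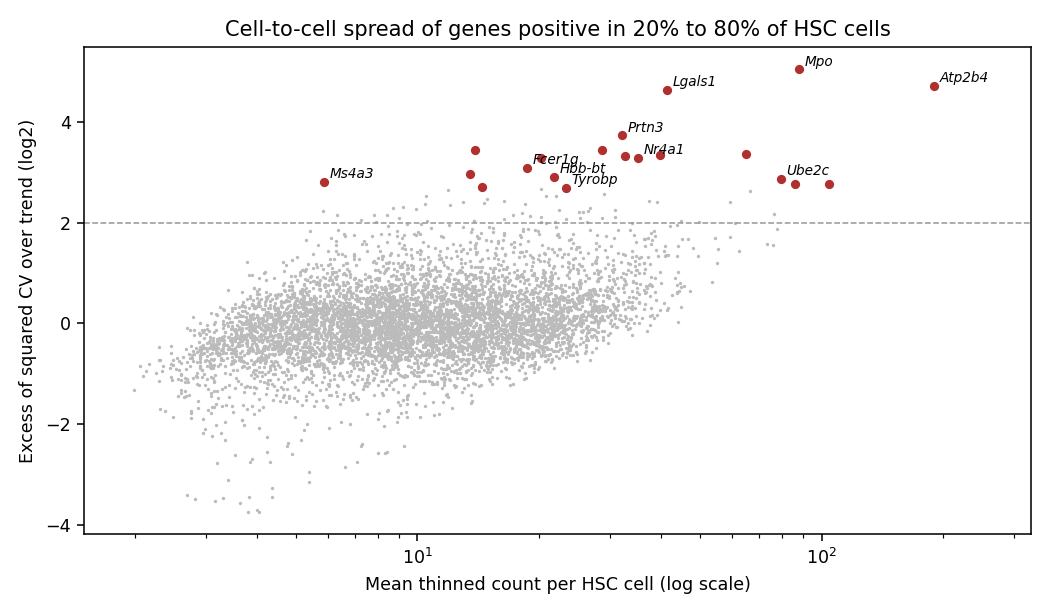
Excess of the squared coefficient of variation over the trend (log2) against the mean thinned count (log scale), 1 point for each gene positive in 20% to 80% of HSC cells, with the 20 leading genes in red and a dashed line at 2. Mpo (5.04), Atp2b4 (4.70) and Lgals1 (4.63) lie highest.

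The cells were split into 3 clusters on 2000 variable genes outside all lists, so that list genes could be described across them. Genes outside the lists that vary with list genes were not barred, so the split is not independent of the lists. Clusters 1, 2 and 3 held 29, 23 and 13 cells. They differed in depth and quality, with median totals of 1167332, 666202 and 1273836 counts, median detected genes of 7300, 6864 and 8279 and median Dock10 shares of 10.2%, 17% and 7.38%. The first component took 7.85% of the variance and had a rho of -0.80 with the number of detected genes. With the summed G2 and mitosis level the first component had a rho of -0.64 and the second 0.60. Differences of cycle genes between clusters are therefore partly built into the split. The part of depth in the split was not tested, and the clusters are given by number and not named. Of 30 G2 and mitosis genes 22 were at least 2-fold higher in cluster 3 than in the other HSC cells (0 lower), beside 13.2% of all 11274 genes tested, and 23 were lower in cluster 1, beside 12.3%. Mki67 was positive in 11 of 29, 12 of 22 and 13 of 13 cells. Of 28 S phase genes 15 were higher in cluster 3. Gfi1 was positive in 51.7%, 31.8% and 84.6% of the cells of the 3 clusters, and Procr in 89.7%, 68.2% and 92.3%. Of 34 endothelial genes, 4, 3 and 5 were higher and 5, 13 and 2 lower in clusters 1, 2 and 3. Over all genes 14.3%, 10.5% and 13.2% were higher and 12.3%, 31.1% and 14% lower. The 13 cells of cluster 3 fell in 1 cluster under each of 5 other ways of clustering, but made up that cluster alone only with 4 clusters. Of the 23 cells of cluster 2, the largest part that stayed in 1 cluster was 9 with the lists included, 11 with 1000 genes and 14 on the authors' log2 table.

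The remaining lists give the setting of these cells. In the interferon and antigen presentation list, Ifitm1 was positive in all 64 cells (30.7, 554 and 5816 CPM in the lowest, median and highest cell, 37.9-fold above the highest other pool), Ifitm3 in 62, Ly6e in 55 and Bst2 in 35. The sum was highest in HSC 60 (12649 CPM, against a median of 2926). These genes are induced by interferon and are also high in stem cells of several kinds. The counts that follow stand beside 6.79% of all genes higher and 11.3% lower than in every other pool. Of 42 niche signal receptors 12 were higher and 8 lower, with S1pr1 positive in 33 cells and P2ry14 in 23. Of 17 Notch genes 3 were higher and 4 lower (Hes1, a target, positive in 36 cells), and of 20 BMP and TGF-beta genes 3 and 6 (Tgfbr2 positive in 57 cells, Eng in 54). Of 20 dissociation stress genes 2 were higher and 7 lower, with a median log2 ratio of -1.03.

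Of the imprinted genes, Cdkn1c (chr7:143458339-143461050, minus strand) was positive in 59 cells, but its pooled 270 CPM were 0.0795 of the Dorsal level. Igf2, the fetal growth factor gene, was positive in 63 cells and Grb10 in 49. The list of cyclins and CDK inhibitors had 12 measured members and also held Rb1, Trp53, Cdk4 and Cdk6. Of the 12 members 1 was higher (Rb1, itself neither a cyclin nor a CDK inhibitor) and 2 lower. Among the 2 lower was Ccnd1 (cyclin D1) at 6.22 CPM, 0.0138 of the Dorsal level. Ccnd3 was positive in all 64 cells and Ccnd2 in 62. Of 13 fetal programme genes 2 were higher and 0 lower, with Hmga2 positive in 63 cells and Lin28b in 31. Of 19 glycolysis genes 0 were higher and 2 lower. All these counts stand beside 6.79% of all genes higher and 11.3% lower. Of 28 S phase genes 0 were higher or lower than in every other pool. Of the Hox and cofactor genes Hoxa9, an HSC regulator, was positive in 45 cells, Hoxa7 in 28 and Hoxa5 in 21. At the 2-fold line the sort thus differed from its neighbours in imprinted and Hox genes at lower levels, and of the S phase and of the G2 and mitosis genes 0 or 1 passed it under each scaling tried.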

How the data were processed

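Smart-seq2 libraries of single cells were made by the authors; the estimated counts in their deposited table come from kallisto 0.43.1 and build GRCm38, per the submitters' processing notes. The annotation, gene summing, filters and size factors are not given in the sources used here. The deposited log2 table holds the log2 of the count divided by a cell size factor, plus 1, as the values show; it was used for alternatives only. Of 14109 entries, 661 without a symbol (3.45% of HSC counts) were left out of totals. Estimated counts were rounded to whole numbers, and thinned to 310000 a cell with a fixed seed. Of 569 genes written in 25 lists, 480 were measured. Members, lists and the rule for named genes were chosen with earlier results of these data known. Named genes are the sort genes and markers, up to 6 members of each list with the highest pooled level, up to 4 with a share nearest 50%, the 20 with the largest excess, the 20 with the largest fold that also held in odd and even i7 cells, up to 5 top correlates of each anchor (rho of at least 0.4 in odd and even cells) and cluster leading genes. The 20 with the largest fold were also limited to genes positive in at least 25% of HSC cells before thinning. Mitochondrial genes, Dock10 and Cep97 were left out of rankings. Excess was read against a lowess trend (span 0.3). Clusters came from Ward linkage on 10 principal components. Since each group is 1 pool, nothing was tested, and the spread between embryos is unknown. Python 3.11.15, scipy 1.17.1, statsmodels 0.14.6 and scikit-learn 1.9.0 were used, and the scripts were tested on simulated data. Ratios carry counting limits and do not describe embryos.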

Additional observations from a re-analysis of the deposited data

Results flagged for a closer look

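Entries without a gene symbol held 3.45% of the counts of the 65 HSC cells, and 2.40 to 10.1% of those of a single cell, the highest in HSC 4. They are a signal outside the measurements used here and were left out of all totals.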

How the results depend on the processing

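The number of fixed genes in 20 to 80% of cells (203), the number 2-fold above every other pool (913, from 811 to 1019) and the number of named variable genes (69, from 59 to 89) stayed within 1.5 times under each alternative. Genes with a rho of 0.4 or more in size with Procr numbered 76 in all cells, 306 in odd and 348 in even cells, where the number of cells is under 35. Agreement of clusters with the main split (adjusted Rand index, 1 for the same) was 0.645 with 2 clusters, 0.303 with the lists included, 0.351 with 1000 genes and 0.417 on the authors' log2 table. Of single-gene values, 173 kept within their limits and 8 moved: the Mpo share was 84.4% at 3 counts and 83.1% unthinned, Cdh5 92.3% unthinned, Sox17 12.5% at 10 counts and 11.8% in even cells, Itga2b 7.81% at 10 counts, and the rho of Mpo and Prtn3 0.59 and 0.35 in odd and even cells. No paired analysis was possible because each group is 1 pool and cell numbers pair nothing. Depth limits genes near 5 counts, and all counts rest on 1 pool.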
